A study of Homo sapiens with 4 samples.

Results

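Nucleotide excision repair is described here through 10 genes, XPA, XPC, DDB1, DDB2, ERCC1, ERCC2, ERCC3, ERCC4, ERCC5 and ERCC6, in RNA-seq data of HaCaT, a human skin keratinocyte line that grows without limit. The genes were chosen by name from the pathway, and each of the 10 symbols was found on 1 of the 44591 rows of the files, 19233 of which are protein-coding. All libraries belong to 1 group of 4 biological replicates without any treatment, grown in Dulbecco's modified Eagle medium with serum (12% by the sample labels). No irradiated, knocked-down or otherwise treated culture was measured, so the values give the resting level of each gene and no response to damage. The replicates are cultures of 1 line, and their spread says nothing of variation between people.

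Nucleotide excision repair removes the bulky lesions that ultraviolet light leaves in DNA, chiefly pyrimidine dimers. A lesion is found either anywhere in the genome, by XPC and the DDB1-DDB2 complex, or by an RNA polymerase that stalls on it, which calls in the protein of ERCC6. Both routes join at the transcription factor TFIIH, which opens the helix, after which the strand is cut on both sides of the lesion, and the gap is filled and sealed. The pathway is the main defence of keratinocytes against sunlight, and inherited loss of most of these genes causes xeroderma pigmentosum, Cockayne syndrome or related disorders.

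The 4 libraries held between 17056035 and 73082279 counted reads, and replicate 1 was 4.28 times as deep as replicate 2. Protein-coding genes took 76.1% of the reads of replicate 1 and 95.3% to 96.4% in replicates 2 to 4. For this reason levels are given as TPM over protein-coding genes, which is the read count per gene length scaled to 1000000 within the protein-coding genes of each library. Of the keratinocyte markers KRT5, KRT14, TP63, CDH1 and ITGA6, 5 of 5 had a mean TPM above 1, and their summed TPM was 8681 to 13479. The fibroblast, immune, endothelial and melanocyte lists had 1 of 4, 1 of 3, 0 of 2 and 1 of 3 markers above that limit, with summed TPM of 2.14 to 8.63, 8.31 to 43.9, 0 to 2.36 and 1.36 to 3.52. PECAM1 had 0 counts in every library, and PTPRC had 0 in replicates 2 to 4. The immune sum came nearly all from CD68, which many cell types express in lysosomes.

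All 10 repair genes were detected, with a mean TPM above 1, a limit passed by 63.3% of protein-coding genes. Together they held a summed TPM of 651 ± 124 (SD, n = 4), or 0.0651% ± 0.0124 of the protein-coding total. The means ran from 290 for DDB1 down to 6.91 for ERCC4, with a median over the 10 genes of 29.3, against 24.5 over all 12165 detected protein-coding genes. In such bulk libraries fewer cells that express a gene and less RNA per cell cannot be told apart. DDB1 and DDB2 together made 74.2%, 58.6%, 67.5% and 64.6% of the summed TPM in replicates 1 to 4. With the deposited gene lengths, these 2 subunits of the lesion-binding complex thus held most of the summed level in every replicate. All annotated exons merged give DDB1 a length of 13950 bp instead of 4356 bp, and DDB2 4897 bp instead of 1848 bp. XPA changes only from 1700 bp to 1833 bp, and ERCC1 from 3806 bp to 5576 bp, so the share is smaller with merged exons. Its size was not computed with those lengths. That the 2 genes held most of the sum in every replicate is thus a result for the deposited lengths only.

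**Figure D1:**
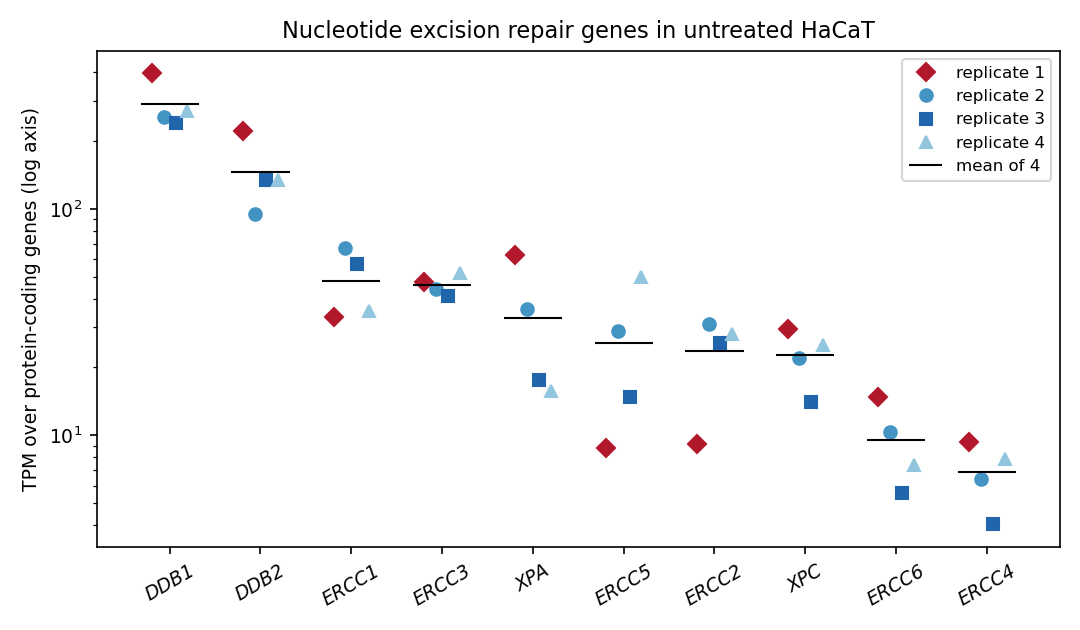
TPM over protein-coding genes (log axis) of the 10 repair genes in each replicate of untreated HaCaT, ordered by the mean of 4, which is drawn as a black line. DDB1 and DDB2 stand above the other 8 genes in every replicate, and replicate 1 is the lowest for ERCC5 and ERCC2 and the highest for XPA.

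Among the proteins that find damage in the whole genome, DDB1 was the most abundant by transcript. DDB1 (chromosome 11, 61066919 to 61100684, minus strand, hg19 as in the files) encodes the adaptor that links DDB2 and many other substrate receptors to the CUL4 ubiquitin ligases. Its TPM was 396, 253, 240 and 271 in replicates 1 to 4, averaging 290 ± 72.0 (SD, n = 4), at percentile 96.1 of the detected protein-coding genes. Replicate 1 was the highest, while replicates 2 to 4 lay within 1.13 times of each other. DDB2 (chromosome 11, 47236493 to 47260769, plus strand) encodes the subunit that binds the ultraviolet lesion itself and hands it on to XPC. The TPM of DDB2 was 221, 94.7, 134 and 134, averaging 146 ± 53.3 (SD, n = 4), at percentile 90.8. Replicate 1 was again the highest, and replicate 2 was the lowest. XPC (chromosome 3, 14186647 to 14220172, minus strand) encodes the sensor of a distorted helix, which starts repair after DDB2 has marked the site. Its TPM was 29.6, 22.0, 14.1 and 25.0, averaging 22.7 ± 6.52 (SD, n = 4), at percentile 47.8, close to the middle of the detected genes.

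DDB2 and XPC are both known as genes that the tumour suppressor p53 can raise after damage, and HaCaT is known to carry mutant p53. The sequence at a start of each gene is given because both bind damaged DNA while their transcript levels were far apart in every replicate. The windows run from 250 bases before to 30 bases after a transcription start of RefSeq on GRCh38.p14, the DDB2 window (the downstream of its 2 starts) at chr11:47214724-47215003 on the plus strand and the XPC window at chr3:14178572-14178851 on the minus strand. Capitals mark TTCCCGC, a form of the site of E2F factors, and, at the end of the DDB2 window, the letters that match the response element of p53.
DDB2: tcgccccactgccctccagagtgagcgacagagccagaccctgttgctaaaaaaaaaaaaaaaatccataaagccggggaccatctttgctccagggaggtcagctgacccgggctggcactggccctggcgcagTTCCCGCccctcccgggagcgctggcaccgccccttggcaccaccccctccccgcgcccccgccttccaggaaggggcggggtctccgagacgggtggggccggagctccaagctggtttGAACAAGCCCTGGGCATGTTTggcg
XPC: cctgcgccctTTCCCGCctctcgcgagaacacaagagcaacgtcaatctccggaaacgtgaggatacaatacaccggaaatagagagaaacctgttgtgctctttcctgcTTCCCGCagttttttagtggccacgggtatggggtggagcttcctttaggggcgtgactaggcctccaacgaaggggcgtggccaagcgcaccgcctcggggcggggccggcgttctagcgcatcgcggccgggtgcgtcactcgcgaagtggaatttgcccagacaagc

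The p53 response element was searched as a pair of half-sites at most 13 bases apart, a motif that reads the same on both strands. In DDB2 it was found from position 6 to position 26 after this start, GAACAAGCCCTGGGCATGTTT, with a spacer of 1 base. Among 35116 RefSeq promoter windows of the same length, 0.0285% held such a pair, and the DDB2 window was the only 1 of the 14 windows of the repair genes that did. Of the other motifs searched, on both strands, TTCCCGC or TTGGCGC stood in 3 of the 14 windows, those of DDB2, XPC and ERCC1, and in 8.69% of all windows. The GC box GGGCGG was found in 8 of 14 windows and 44.1% of all, CCAAT in 3 of 14 and 33.6% of all, and TATAAA in 0 of 14 and 11.2% of all. These are matches of letters in short windows, and no binding was measured in these libraries.

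To set genes of different length beside each other without the scaling of a library, the reads per kilobase of 2 genes were also divided within each replicate. Per kilobase, the reads of DDB1 over those of DDB2 came to 1.79 (1.76 to 1.83), 2.67 (2.51 to 2.85), 1.79 (1.71 to 1.87) and 2.03 (1.93 to 2.13) in replicates 1 to 4, with 95% Clopper-Pearson bounds in parentheses. Such intervals cover counting error only, since reads are not independent molecules. DDB1 was thus above DDB2 in 4 of 4 replicates, and only replicates 1 and 3 had overlapping intervals. On the log2(TPM + 1) scale the difference was 1.02 ± 0.27 (SD, n = 4; by a sign-flip permutation test, exact and two-sided, p = 0.125, Benjamini-Hochberg adjusted p = 0.175 over the 7 pairs compared). With 4 replicates 0.125 is the smallest p this test can give, so no pair can pass 0.05, and a difference was called larger than its spread where its mean exceeded its SD and all replicates had 1 sign. By that rule 5 of the 7 pairs were called, and 7 of 7 without replicate 1. The rule is easier to meet with fewer replicates, and without replicate 1 the smallest p of the sign-flip test was 0.25. The share of all gene pairs that the rule calls was not computed, so no such count is read as a trait of the pairs.

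XPC had 0.134, 0.232, 0.105 and 0.187 times the reads of DDB2 per kilobase in replicates 1 to 4. On the log2(TPM + 1) scale the XPC minus DDB2 difference ran from -3.17 to -2.06 in single replicates, with a mean of -2.61 ± 0.49 (SD, n = 4; exact sign-flip permutation test, p = 0.125). The lesion binder thus exceeded the sensor that follows it in every library, by more than the spread. An antisense gene overlaps the 3′ end of XPC by 3138 bp and had 15 to 35 counts, and another inside DDB2 had 1 to 16 counts, both far fewer than the counts of the genes themselves. TKFC, on the opposite strand, overlaps DDB1 by 31 bp and had 881 to 3383 counts.

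**Figure D2:**
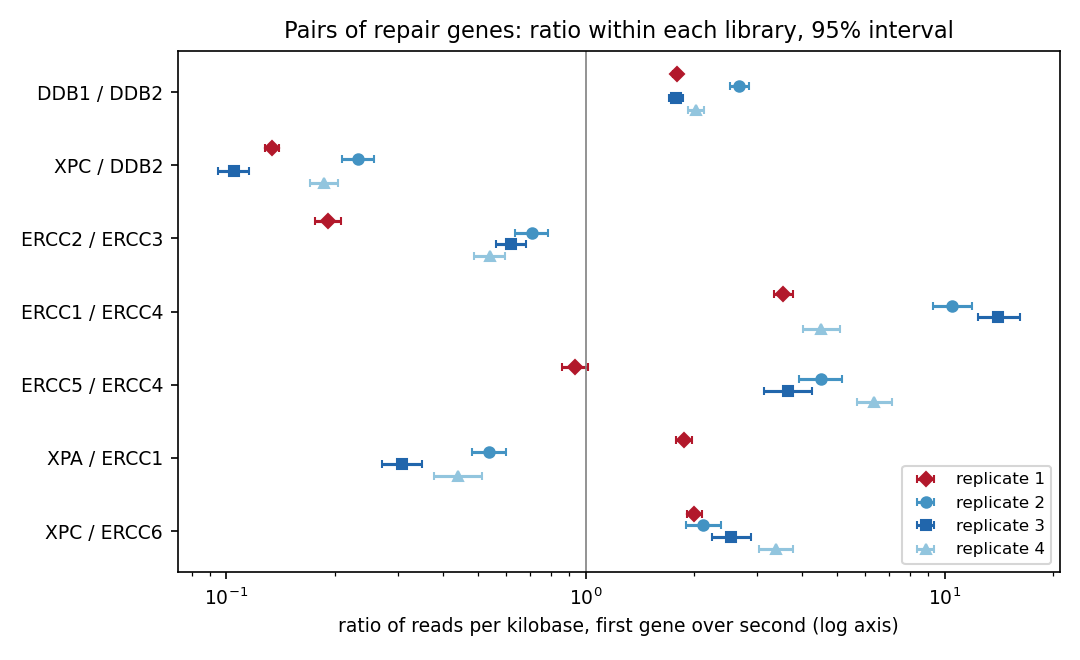
Ratio of reads per kilobase of 7 pairs of repair genes within each replicate (log axis, first gene over second), with 95% Clopper-Pearson intervals of counting error and a grey line at 1. DDB1 over DDB2, ERCC1 over ERCC4 and XPC over ERCC6 lie right of the line in all 4 replicates, while replicate 1 is on the other side of the line from replicates 2 to 4 for XPA over ERCC1 and for ERCC5 over ERCC4.

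ERCC6 (chromosome 10, 50662526 to 50747584, minus strand) encodes CSB, the ATPase that binds stalled RNA polymerase II and starts transcription-coupled repair. Its TPM was 14.7, 10.3, 5.53 and 7.38 in replicates 1 to 4, averaging 9.49 ± 4.01 (SD, n = 4), at percentile 25.6. Replicate 1 was the highest and replicate 3 the lowest. Per kilobase XPC had 2.01 (1.91 to 2.11), 2.13 (1.90 to 2.38), 2.54 (2.24 to 2.88) and 3.39 (3.03 to 3.78) times the reads of ERCC6. The starter of the genome-wide route was thus above that of the transcription-coupled route in 4 of 4 replicates, by 1.20 ± 0.30 on the log2(TPM + 1) scale (SD, n = 4; exact sign-flip permutation test, p = 0.125). By reads without length correction the order turned, with an XPC minus ERCC6 difference of -0.27 ± 0.33, since the row of ERCC6 is given a length of 11117 bp and that of XPC 3721 bp. PGBD3, a transposase gene inside an intron of ERCC6 on the same strand, had 0 counts in replicate 1 and 69, 93 and 61 in replicates 2 to 4. An antisense gene over ERCC6, ENSG00000235939.1, had 5 counts in replicate 1 and 0 in the others.

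ERCC3 and ERCC2 encode XPB and XPD, the ATPase and the helicase of TFIIH that part the strands around the lesion. ERCC3 (chromosome 2, 128014866 to 128051752, minus strand) was measured at a TPM of 47.7, 44.0, 41.4 and 51.9, averaging 46.3 ± 4.58 (SD, n = 4), at percentile 69.1. Its highest value was 1.25 times the lowest, and its SD of 0.14 on the log2(TPM + 1) scale was the smallest of the 10 genes. That position rests on the scaling, since with TPM over all genes of the files its SD was 0.73, larger than the 0.40 of DDB2 and the 0.46 of DDB1. ERCC2 (chromosome 19, 45854649 to 45873845, minus strand) was measured at a TPM of 9.13, 31.1, 25.6 and 28.1, averaging 23.5 ± 9.84 (SD, n = 4), at percentile 48.9. Replicate 1 stood far below the others, which lay within 1.21 times of each other at 28.3 ± 2.75 (SD, n = 3). Per kilobase ERCC2 had 0.191 times the reads of ERCC3 in replicate 1 and 0.707, 0.620 and 0.541 times in replicates 2 to 4. The mean ERCC2 minus ERCC3 difference was -1.07 ± 0.81 on the log2(TPM + 1) scale (SD, n = 4; exact sign-flip permutation test, p = 0.125), and -0.67 ± 0.19 without replicate 1. With all annotated exons of a gene merged to give its length, it was -0.68 ± 0.80 and no longer exceeded its SD. ERCC2 overlaps KLC3 on the opposite strand by 130 bp.

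XPA (chromosome 9, 100437191 to 100459691, minus strand) encodes the scaffold that verifies the lesion and positions the nucleases. Its TPM was 62.5, 36.0, 17.6 and 15.7 in replicates 1 to 4, averaging 33.0 ± 21.7 (SD, n = 4), at percentile 59.3. Replicates 3 and 4 were close, with 95% Poisson intervals of 15.6 to 19.8 and 13.6 to 18.1 from 269 and 199 counts, while replicates 2 and 1 stood above them and apart from each other. The highest value was 3.98 times the lowest, and without replicate 1 still 2.29 times. With TPM over all genes of the files the mean was 20.3 ± 8.01 (SD, n = 4), lower by 1.62 times. XPA ranked 3 of the 10 genes in replicate 1 and 8 of the 10 in replicate 4. XPA recruits ERCC1 through direct binding, and per kilobase it had 1.88 times the reads of ERCC1 in replicate 1 but 0.538, 0.309 and 0.442 times in replicates 2 to 4. The mean XPA minus ERCC1 difference, -0.69 ± 1.10 on the log2(TPM + 1) scale (SD, n = 4), was smaller than its spread (exact sign-flip permutation test, p = 0.375), and without replicate 1 it was -1.22 ± 0.39 (n = 3). By reads without length correction it was -1.82 ± 1.09, with ERCC1 higher in 4 of 4 replicates. With all annotated exons merged to give the length, it was -0.26 ± 1.11, smaller than its spread, so the size of the difference rests on the lengths used.

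ERCC1 and ERCC4 encode the partners of the ERCC1-XPF nuclease, which cuts on the 5′ side of the lesion; XPF, from ERCC4, carries the active site. ERCC1 (chromosome 19, 45910591 to 45927177, minus strand) was measured at a TPM of 33.3, 66.9, 57.0 and 35.5, averaging 48.2 ± 16.4 (SD, n = 4), at percentile 70.1. Replicates 2 and 3 were high, and replicates 1 and 4 were low and close to each other. ERCC4 (chromosome 16, 14014014 to 14046205, plus strand) was the lowest of the 10 by mean, at a TPM of 9.38, 6.38, 4.05 and 7.84, averaging 6.91 ± 2.27 (SD, n = 4), at percentile 20.3. Per kilobase ERCC1 had 3.55 (3.34 to 3.78), 10.5 (9.25 to 11.9), 14.1 (12.3 to 16.1) and 4.53 (4.03 to 5.11) times the reads of ERCC4. The transcripts of the 2 subunits, which act as a heterodimer, were thus unequal in every replicate, by 2.62 ± 0.87 on the log2(TPM + 1) scale (SD, n = 4; exact sign-flip permutation test, p = 0.125).

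A gene on the opposite strand, CD3EAP, a subunit gene of RNA polymerase I, overlaps ERCC1 by 3434 bp. Its TPM was 7.21, 51.7, 47.4 and 22.1 in replicates 1 to 4, with the high values in replicates 2 and 3, as for ERCC1. How many other genes share this order was not computed, and 4 replicates are too few to read a link from it. The part that reads shared between the strands play in the values of ERCC1 was not tested. In ERCC4 an antisense gene had 0 counts in replicate 1 and 57, 47 and 62 in replicates 2 to 4, and the pseudogene RPS26P52 had 0 in all.

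ERCC5 encodes XPG, the nuclease that cuts on the 3′ side of the lesion and also steadies TFIIH. It varied most of the 10 genes. ERCC5 (chromosome 13, 103498191 to 103528351, plus strand) was measured at a TPM of 8.76, 28.8, 14.8 and 49.9 in replicates 1 to 4, averaging 25.6 ± 18.3 (SD, n = 4), at percentile 51.5. No 2 replicates had overlapping 95% Poisson intervals, and the highest value was 5.69 times the lowest. Against ERCC4, the nuclease of the other side, ERCC5 had 0.934 (0.859 to 1.02) times the reads per kilobase in replicate 1 and 4.51, 3.65 and 6.36 times in replicates 2 to 4. The mean ERCC5 minus ERCC4 difference was 1.52 ± 1.13 on the log2(TPM + 1) scale (SD, n = 4; exact sign-flip permutation test, p = 0.25), with both signs present. Without replicate 1 it was 2.06 ± 0.44 (n = 3).

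The counts of ERCC5 cannot be read apart from a readthrough gene that holds it. BIVM-ERCC5 (chromosome 13, 103459496 to 103528351) joins the upstream gene BIVM to ERCC5 and covers all 30161 bp of the span of ERCC5 on the same strand. In replicates 2 to 4 it was given 831, 579 and 1616 counts beside 782, 542 and 1519 for ERCC5, an excess of 49, 37 and 97, and 106% to 107% of the count of ERCC5 in each of the 3 libraries. In replicate 1 it had 0 counts beside 870 for ERCC5 and 988 for BIVM, although that library was the deepest. Of 380 protein-coding genes above a TPM of 1 in each of replicates 2 to 4 that overlap a protein-coding gene on their own strand, 10.3% had 0 counts in replicate 1, against 0.424% of 11083 genes without such an overlap. The low value of ERCC5 in replicate 1 thus came with another split of counts at the locus, whose part in it was not tested. Whether replicate 1 was counted with the same program and settings as the other libraries is not given in the sources used here, which bears on each replicate 1 value at an overlapping locus, PGBD3 and the antisense gene in ERCC4 included. Among replicates 2 to 4, where the 2 rows kept the same proportion, the TPM of ERCC5 still differed by 3.38 times.

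**Figure D3:**
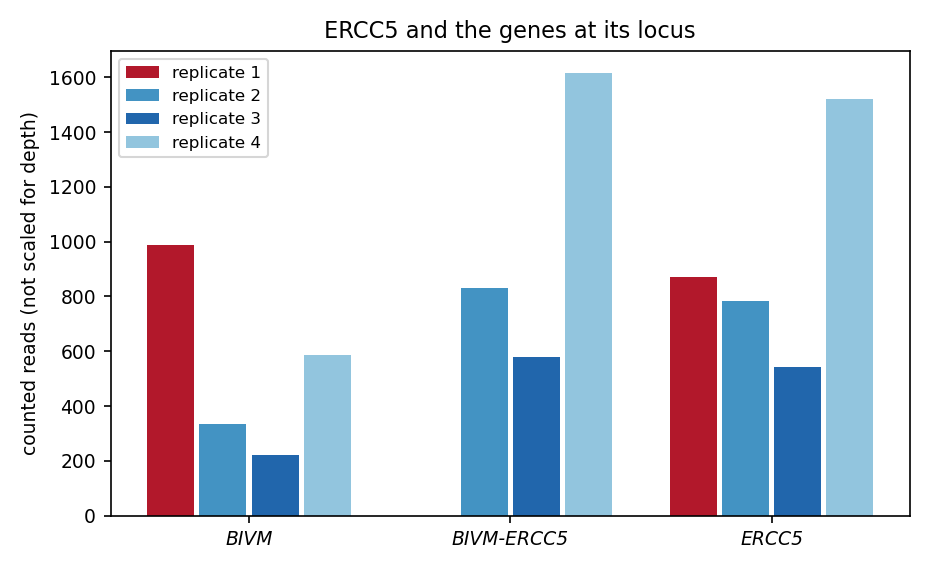
Counted reads of BIVM, the readthrough gene BIVM-ERCC5 and ERCC5 in each replicate, not scaled for depth, with bars from 0. BIVM-ERCC5 has 0 counts in replicate 1 and slightly more counts than ERCC5 in replicates 2 to 4.

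The start of ERCC5 used by RefSeq lies inside the readthrough gene, and it is shown because transcripts of ERCC5 can begin here or far upstream at BIVM. The window covers chr13:102845782-102846061 of GRCh38.p14 on the plus strand, from 250 bases before to 30 after the start, with the GC box CCGCCC in capitals.
ERCC5: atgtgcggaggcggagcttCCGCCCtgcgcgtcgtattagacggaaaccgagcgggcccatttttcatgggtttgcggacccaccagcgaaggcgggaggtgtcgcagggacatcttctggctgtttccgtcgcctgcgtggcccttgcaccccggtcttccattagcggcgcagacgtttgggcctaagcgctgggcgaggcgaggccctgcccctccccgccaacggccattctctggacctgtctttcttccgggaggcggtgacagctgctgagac
Of the motifs searched, the window held the GC box alone, with its first base at position -231, and 65% of its bases were G or C, against a median of 58.2% over all windows.

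The order of the 10 genes by mean TPM was DDB1, DDB2, ERCC1, ERCC3, XPA, ERCC5, ERCC2, XPC, ERCC6 and ERCC4. With the deposited lengths DDB1 was first and DDB2 second in 4 of 4 replicates. Without length correction, or with merged exons as length, DDB1 was still first in 4 of 4. DDB2 then fell below ERCC1 in replicate 2, where it had 1164 counts against 1694 of ERCC1. Of the 9 pairs of neighbours in this order, 3 differed by more than their spread over replicates, DDB1 and DDB2, DDB2 and ERCC1, and XPC and ERCC6. The order was taken from the same 4 replicates, so the p of a neighbour pair is no independent test of it. The difference from DDB2 to ERCC1 was 1.57 ± 0.94 on the log2(TPM + 1) scale (SD, n = 4; exact sign-flip permutation test, p = 0.125, adjusted p = 0.375 over 9 pairs), and did not exceed its SD without length correction, at 0.55 ± 0.94, or with merged exons as length, at 0.73 ± 0.94. ERCC1 and ERCC3 differed by 0.00 ± 0.60, each being higher in 2 of 4 replicates. This rests on the deposited lengths. With merged exons as length the difference was 0.91 ± 0.60, larger than its spread, with ERCC1 higher in 4 of 4 replicates. With the deposited lengths, no neighbours from ERCC1 to XPC differed beyond their spread. Of all 15 pairs among these 6 genes 5 did, with ERCC1 above ERCC2 and XPC, and ERCC3 above ERCC5, ERCC2 and XPC, in 4 of 4 replicates. ERCC6 and ERCC4 differed by 0.38 ± 0.32, with ERCC6 higher in 3 of 4 replicates. Without replicate 1 the number of such pairs was 5 of 9.

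Replicate 1 lay outside the range of the other replicates for 9 of the 10 genes. It was the highest for 6, XPA, XPC, DDB1, DDB2, ERCC4 and ERCC6, a position it held for 40.2% of detected protein-coding genes. It was the lowest for 3, ERCC1, ERCC2 and ERCC5, as for 37.4% of detected protein-coding genes. ERCC3 lay within the range. TPM over all genes of the files takes the reads of other gene classes into the total. With it replicate 1 was instead the lowest for 9 genes and the highest for 0, so the direction rests on the scaling. Under that scaling it was the lowest for 81.7% and the highest for 3.75% of detected protein-coding genes. With TPM over protein-coding genes, replicate 3 was the lowest for 5 genes and the highest for 0, against 40.1% and 13.3% of detected protein-coding genes. Replicate 2 was the lowest for DDB2 and the highest for ERCC1 and ERCC2, positions it held for 9.40% and 23.3% of detected protein-coding genes. Replicate 4 was the lowest for XPA and the highest for ERCC3 and ERCC5, against 12.9% and 23.3%. Nothing about the 10 genes as a set is read from these counts.

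Across 11889 detected protein-coding genes, the difference between replicate 1 and the mean of replicates 2 to 4 fell with the GC content of the transcript (Spearman correlation across genes, -0.51). ERCC2, the gene with the highest GC content of the 10 at 60.0%, had a difference of -1.53 on the log2(TPM + 1) scale, and ERCC1, at 56.1%, had -0.61. XPA, ERCC6 and ERCC4, with 43.8%, 43.0% and 39.9%, had differences of 1.49, 0.88 and 0.59. ERCC5, at 43.2%, had -1.56, and DDB2, at 54.3%, had 0.88. DDB1, XPC and ERCC3, with 53.5%, 52.5% and 50.4%, had 0.64, 0.56 and 0.06. Like DDB2, these genes lay above the median GC content of detected protein-coding genes, 49.1%, without being lower in replicate 1. Over the 10 genes the correlation was -0.24, from points that share the same 4 libraries. The part of GC content in the value of any single gene was not tested.

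**Figure D4:**
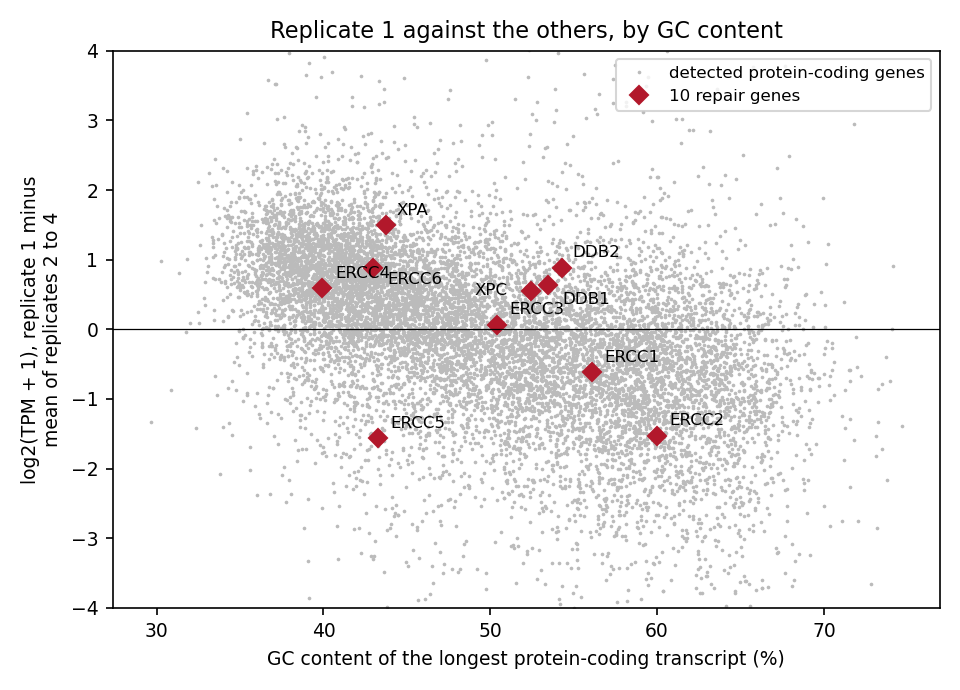
Difference on the log2(TPM + 1) scale between replicate 1 and the mean of replicates 2 to 4 (vertical axis) against the GC content of the longest protein-coding transcript in percent, for detected protein-coding genes (grey, 202 of them beyond the axis limit of 4) and the 10 repair genes (red). Among the repair genes XPA is highest, at 1.49, and ERCC5 and ERCC2 are lowest, at -1.56 and -1.53.

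With TPM over protein-coding genes, the spread between replicates was near that of other genes. The median SD of log2(TPM + 1) over 4 replicates was 0.49 for the 10 genes and 0.52 for detected protein-coding genes. Over replicates 2 to 4 it was 0.41 and 0.33, with the lowest values at 0.09 for DDB1, 0.14 for ERCC2 and 0.17 for ERCC3 and the highest at 0.62 for XPA and 0.85 for ERCC5. With TPM over all genes, the median SD over 4 replicates was 0.54 for the 10 genes and 0.77 for detected protein-coding genes.

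The other genes of the pathway were read from a list of 40 in 5 roles, and 40 of 40 were detected, with a median of their mean TPM of 57.3. Among 6 partners of damage recognition, RAD23B, which stabilizes XPC, was highest with 209 ± 7.82 (SD, n = 4), and CUL4B, the scaffold of a DDB1 ligase, was lowest with 30.4 ± 17.6. Among 5 genes of transcription-coupled repair, ELOF1, an elongation factor bound to RNA polymerase II, was highest with 102 ± 30.4, and UVSSA, which helps to bring TFIIH to the stalled polymerase, was lowest with 5.72 ± 1.83. The starter of this route, ERCC6, lay near the low end of that range.

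Among 8 other subunits of TFIIH, the kinase CDK7 was highest with 87.2 ± 23.3 (SD, n = 4) and the small subunit GTF2H5 lowest with 4.74 ± 2.19, so both ERCC3 and ERCC2 fell within the range of their complex. Replicate 1 was the highest for 7 of the 8 and the lowest for 1, positions it held for 40.2% and 37.4% of detected protein-coding genes. For ERCC2 it was the lowest. The position of replicate 1 rests on the scaling. With TPM over all genes it was the highest for 3.75% and the lowest for 81.7% of detected protein-coding genes. Of the 3 subunits of RPA, the binder of single-stranded DNA, RPA1 had 92.1 ± 39.8 and RPA3 57.3 ± 21.1. Among 18 genes of gap filling and ligation, PCNA, the sliding clamp that also serves replication, was highest with 637 ± 164, and POLK, a translesion polymerase that takes part in repair synthesis, was lowest with 3.46 ± 1.86. PCNA, at 531 to 881 in single replicates, was above DDB1 in 4 of 4.

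**Figure D5:**
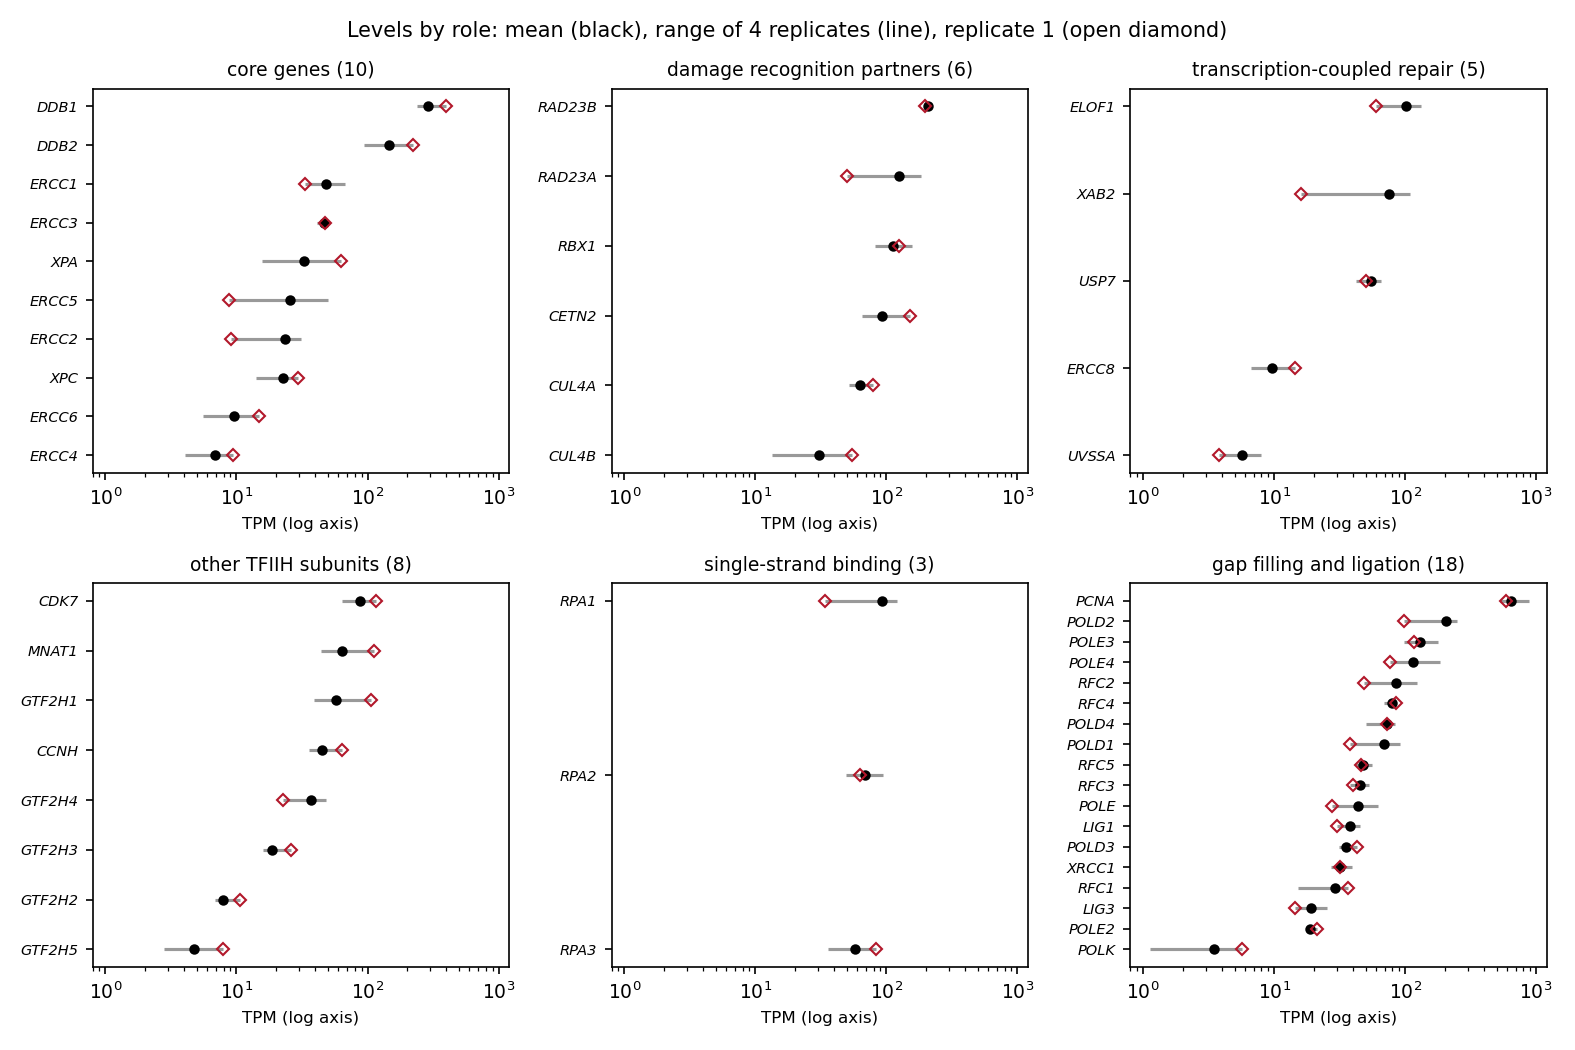
TPM over protein-coding genes (log axis) of the 10 core genes and the 40 other pathway genes by role, with the mean of 4 replicates as black points, their range as grey lines and replicate 1 as open diamonds. The roles overlap in level, with PCNA at 637 and POLK at 3.46 as the highest and lowest means.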

How the data were processed

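RNA-seq of 4 replicates of untreated HaCaT was analysed, 1 file per replicate. The authors deposited raw read counts per gene with a gene length, beside RPKM for replicates 1 and 2 and TPM for replicates 3 and 4. The deposited RPKM and TPM columns differed by at most 4.06e-05 from values recomputed from counts and lengths and were not used further. The submitters' processing notes name HISAT2, TopHat2, Bowtie2 and HISAT and the build hg19. The counting program, its handling of overlapping genes and strands, and the selection of RNA are not given in the sources used here.

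TPM was computed over protein-coding rows from the deposited counts, so that RNA of other classes does not enter the total. A TPM is per length, so the length chosen for a gene sets its level. Differences were taken on log2(TPM + 1), where 1 is the pseudocount, which understates those of low genes, and tested by permuting signs over the 4 replicates (exact, two-sided), with Benjamini-Hochberg adjustment. A gene counted as detected at a mean TPM above 1. GC content and exon lengths came from GENCODE release 29, matched by name (97.7% of protein-coding genes for exon lengths). RefSeq promoters were matched for 10 of 10 genes, in 14 windows. Total counts ranged from 17056035 to 73082279, and the fewest counts of a repair gene were 199.

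The genes, pairs and lists were chosen with earlier results of these data known. All 10 genes are named, and of each role of the wider list the highest and the lowest. Genes that overlap a repair gene are named, or described by their class. The alternatives were TPM over all genes, TMM scaling, pseudocounts of 0.1 and 0, merged exons as gene length, no correction for length, other detection limits, no filter and leaving out each replicate. A further 3 were added after seeing the values: the order without ERCC5 and ERCC2, ERCC5 summed with BIVM-ERCC5, and the wider list without replicate 1. The TPM and the calls of a replicate above or below the others were tested on simulated data, and the permutation test on fixed sets of values. The tools were edgeR 4.0.16 in R 4.3.3 for TMM factors, and SciPy 1.17.1, pandas 2.3.3, NumPy 2.4.6 and matplotlib 3.10.9 in Python 3.11.15.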

Additional observations from a re-analysis of the deposited data

Results flagged for a closer look

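In 71 sets of 4 values, 1 for each replicate, the farthest value was set against the others with the 95% limit of Dixon's test. The sets were the TPM of the 10 repair genes and of the 40 other pathway genes, the differences between repair genes, and the sums over the repair genes and the markers. In all 10 sets passed, where chance gives 3.55, or 1 in 20. Pathway genes made 9 of them, 8 with replicate 1 as the far value. Replicate 1 was the highest for 40.2% and the lowest for 37.4% of all detected protein-coding genes. The share of all detected genes past this limit was not computed, so the count is not read as a trait of the pathway. Of the 9 pathway genes, 5 were among the 8 other subunits of TFIIH, each higher in replicate 1. GTF2H1 had a TPM of 107 against 38.9 to 42.0, MNAT1 had 111 against 43.9 to 51.6, and CCNH had 63.7 against 36.1 to 40.2. GTF2H3 had 26.0 against 15.8 to 16.9, and GTF2H2 had 10.7 against 6.81 to 7.07. Of the gap-filling polymerase subunits, POLD2 was lower in replicate 1, at 97.4 against 234 to 248, and POLD3 was higher, at 43.2 against 31.3 to 33.2. The TPM of RAD23B was 197 in replicate 1 against 213 in each of replicates 2 to 4. The TPM of PCNA was 881 in replicate 3 against 531 to 586 in the others. The summed TPM of the endothelial markers was 2.36 in replicate 1 against 0 to 0.119 in the others, all of it from VWF, with PECAM1 at 0. None of the 10 repair genes and none of the differences between them passed this limit.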

How the results depend on the processing

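Under TMM scaling 35 of 35 values kept their direction or range, as did 19 of 19 without a pseudocount and 21 of 21 with a pseudocount of 0.1. TPM over all genes put 9 repair genes below and 0 above the other replicates in replicate 1, with 81.7% and 3.75% of detected protein-coding genes, and turned the ERCC2 minus XPC difference to 0.0129. It moved the mean levels of DDB1 to 202, XPC to 16.0 and ERCC3 to 34.6, by more than the SD over replicates. Without length correction the differences were -0.27 for XPC minus ERCC6, -0.80 for XPA minus ERCC5 and 0.39 for ERCC5 minus ERCC2, and 3 differences came to exceed their spread, XPA minus ERCC1 at -1.82 ± 1.09, ERCC3 minus XPA at 1.48 ± 0.90 and ERCC6 minus ERCC4 at 1.10 ± 0.35. With the union of exons they were -0.65 for ERCC3 minus XPA and 0.0476 for ERCC5 minus ERCC2. ERCC1 minus ERCC3 then came to exceed its spread, at 0.91 ± 0.60. Leaving out each replicate in turn gave 3 to 5 neighbour pairs beyond their spread and a median SD of detected genes of 0.33 to 0.57. The ranges were -0.35 to 1.08 for XPA minus ERCC5, -0.32 to 0.49 for ERCC2 minus XPC, -0.20 to 0.18 for ERCC1 minus ERCC3 and -0.31 to 0.22 for ERCC5 minus ERCC2, and all of these neighbour differences were smaller than their SD with 4 replicates. ERCC5 summed with BIVM-ERCC5, chosen after seeing the data, had a mean difference from ERCC4 of 2.17 ± 1.55. Both signs were present, so it was not called larger than its spread. In replicate 1 BIVM-ERCC5 had a TPM of 0 and ERCC5 one of 8.76, against 9.38 for ERCC4. In replicates 2 to 4 BIVM-ERCC5 had 106% to 107% of the count of ERCC5, so the sum raised ERCC5 in those libraries only. Whether the same reads were counted on both rows was not tested. The cause of these changes was not tested. No paired analysis was possible because there is only 1 group.

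With 4 replicates the smallest p is 0.125. Each level rests on the deposited gene length, on counting rules that are not given in the sources used here, and on replicate 1, which differed from the others in depth and RNA classes.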
